A study of Homo sapiens with 4 samples.

Results

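Many human genes can finish their RNA at more than 1 place, and the transcript ends listed for genes with several of them were followed here through the knockdown of NEUROD1, a proneural transcription factor. A transcript end is the last exon of a transcript as listed in the event table of each library, with its expression in FPKM (fragments scaled to transcript length and to the mapped fragments of the library). Genes were kept when they had an Ensembl identifier, at least 2 distinct listed ends, and a summed end expression averaging at least 5 FPKM over the 4 libraries, an end that a library did not list being taken as 0. This left 1264 genes with 3717 ends, of 10962 Ensembl genes with 16022 listed ends in all. The members were thus chosen by their listed ends and their FPKM, so these levels are a description. The quantity compared between groups was the share, an end's percentage of the summed end FPKM of its gene, which the rule did not use. FNIP1 lay just inside the level limit at 5.0013 FPKM with 3 ends, and RPS6KC1 just outside it at 4.9954 FPKM with 2 ends.

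The RNA came from IMR-32 cells, a human line that was established from a neuroblastoma and carries extra copies of MYCN. Both groups carried a doxycycline-inducible short hairpin RNA and received 1 µg/mL doxycycline for 48 h: shControl (labelled WT, 2 libraries) carried a control hairpin, and shNeuroD1 (labelled NeuroD1 knockdown, 2 libraries) carried a hairpin against NEUROD1. The labels do not name the hairpin sequence in shNeuroD1 and do not say whether the replicates were separate cultures, so a p-value measures only the spread between these samples, which may be technical.

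Total gene counts were 15403815 and 16482463 for shControl and 14665210 and 14677569 for shNeuroD1. The count of NEUROD1 itself was 6174 and 6582 in the controls against 969 and 886 under knockdown (log2 fold change −2.77, SE 0.0504, edgeR adjusted p = 8.59e-29), and no transcript end was listed for it. All 8 neuroblastoma markers passed the count filter, summing to 3910 to 4020 CPM (counts scaled to the library's total after TMM adjustment of that total) in shControl and 3550 to 3570 in shNeuroD1. Fibroblast markers (2 of 4 past the filter, without COL1A2 and DCN) summed to 35.8 and 37.8 CPM in shControl and 20.8 to 21.6 in shNeuroD1. Epithelial markers (1 of 4) summed to at most 0.063 against 1.38 to 1.84 CPM, endothelial markers (2 of 3) to 1.39 to 1.7 against 1.31 to 1.58, and 0 of 4 immune markers passed the filter. The part of these markers in the results was not tested. In bulk RNA, fewer cells of a kind and less RNA per cell cannot be told apart.

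A transcript end is made when the nascent RNA is cut and a poly(A) tail is added. The cleavage and polyadenylation specificity factor (CPSF) reads a hexamer, most often AATAAA or ATTAAA in DNA letters, a short way upstream of the cut, the cleavage stimulation factor (CstF) and cleavage factor I bind around it, and poly(A) polymerase adds the tail. A gene with several usable ends can make proteins with different C-termini, when the ends lie in different last exons, or messages with different 3′ untranslated regions. Neurons tend to use far ends and dividing cells near ones, which makes end choice of interest in a neuroblastoma line.

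The last 30 bases of both competing ends are printed for genes picked after their values were seen, to show what kind of end stood on each side of a difference in share between the groups. They are written 5′ to 3′ on the minus strand of GRCh38 (the hg38 build of the files), from GENCODE 29 exons, and capitals mark AATAAA or ATTAAA. Ends are numbered from 5′ to 3′ along the gene by their last base, in arbitrary order where they share it.
NHP2 end 2 (chr5:178149463-178149492): gggtggggaaagtaaatgctaagactaaaa
NHP2 end 3 (chr5:178148173-178148202): tctccctcctcagcctctgccaaagggctg
ARHGDIA end 2 (chr17:81868366-81868395): ctgtcggtcccgtctaaccatgatgcctta
ARHGDIA end 3 (chr17:81867721-81867750): tctgaccgggaAATAAAtgcccctgaagga
CELF1 end 1 (chr11:47468284-47468313): ctgagttctcaactgcggagagcacctgaa
CELF1 end 2 (chr11:47465944-47465973): tcctttgtttatttgctATTAAActgtttg
DCTN2 end 3 (chr12:57533953-57533982): gagcaggacaagttctctcaagctgccaaa
DCTN2 end 5 (chr12:57530051-57530080): cagggcaagtacaaaacagaATTAAAactc
NUDT5 end 1 (chr10:12170232-12170261): ccgtgtgatatgcttttcacatAATAAAcc
NUDT5 end 2 (chr10:12165193-12165222): tgctttagggatttaaacagaaaagaatcg
LPCAT4 end 1 (chr15:34360912-34360941): gaggaattttctcaagattcttagcaagcc
LPCAT4 end 2 (chr15:34358633-34358662): tgctctgtcctcATTAAAgATTAAAaaata
XPO6 end 1 (chr16:28180941-28180970): gtacaaccaatgaaagaaaacgtgagatag
XPO6 end 3 (chr16:28107588-28107617): gggagtccaccaagtctcgacagatttgct
In ARHGDIA, CELF1, DCTN2 and LPCAT4 the more 3′ end of the pair carried a hexamer, and in NUDT5 the more 5′ end did. Neither end printed for NHP2 or XPO6 held one. The ends without capitals held no AATAAA or ATTAAA in their last 50 bases either, which says only that these letters are not in that window.

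The end that took most of a gene's FPKM, its leading end, held a poly(A) hexamer at a higher percentage than the other ends of the same genes, given here as a description because the FPKM decided which end leads. AATAAA or ATTAAA stood in the last 50 bases, on the transcript strand, of 68.7% of the 1109 leading ends that could be read and of 26.7% of the 2147 other ends. Ends that were the only one of their gene, at the same expression limit, held one in 73.6% of 2340, and all listed ends in 48.1% of 13156. Read on the opposite strand, the same windows gave 12.5% for leading ends, 7.87% for other ends, 14.3% for single ends and 10.2% for all listed ends. AATAAA alone gave 57.3% of leading, 21.0% of other and 60.3% of single ends. The windows were read only where an annotated exon held all of the 50 bases.

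**Figure D1:**
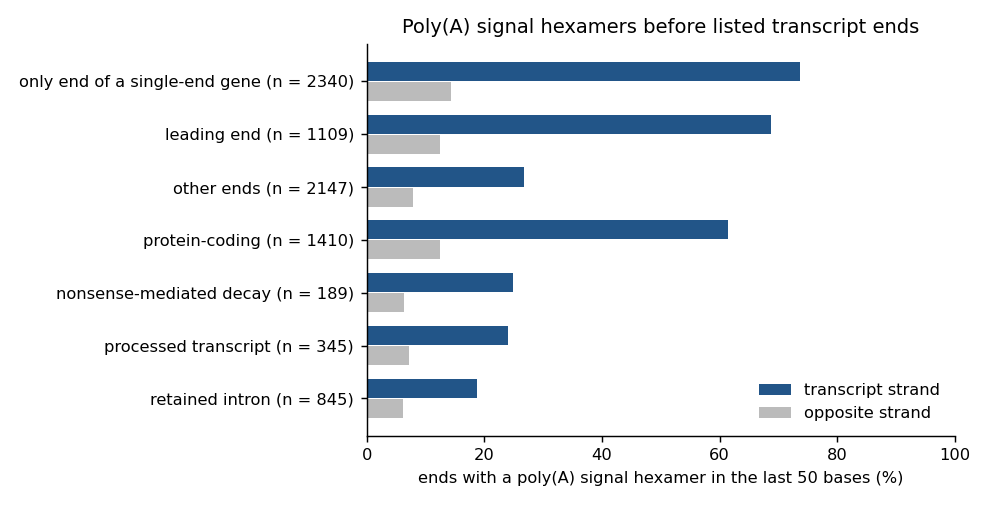
Percentage of transcript ends with AATAAA or ATTAAA in their last 50 bases (bars, from 0), for each class of end, on the transcript strand and on the opposite strand. Leading ends stood at 68.7% and other ends of the same genes at 26.7%, with 12.5% and 7.87% on the opposite strand.

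The 2 classes also had a different make-up by transcript type. Of the 1264 leading ends, 897 (71.0%) matched the last exon of a protein-coding transcript in GENCODE 29, 134 (10.6%) a retained intron, 52 (4.11%) a transcript subject to nonsense-mediated decay, a pathway that destroys messages with early stop codons, and 51 (4.03%) a processed transcript without an open reading frame. Of the 2453 other ends, 690 (28.1%) were protein coding, 736 retained introns, 157 (6.4%) decay substrates and 324 (13.2%) processed transcripts. The hexamer stood in 61.5% of the 1410 protein-coding ends read, 24.9% of 189 decay ends, 24.1% of 345 processed transcripts and 18.7% of 845 retained introns. The last exon was 962 bases long at the median for leading ends and 345 for other ends.

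One end dominated in most genes. The leading end held a median of 95.2% of the gene's end FPKM, with a lower quartile of 82.6%, held 90% or more in 811 genes (64.2%), and together the leading ends held 91.4% of the members' FPKM. In 936 of 1085 genes (86.3%) it finished at the most 3′ last base of the ends inside the gene. The first and last ends inside a gene lay 8558 bases apart at the median (quartiles 2438 and 22055). There were 2 ends in 635 genes, 3 in 333, 4 in 162, 5 in 74 and 6 or more in 60, with a maximum of 13, and 1202 of the genes (95.1%) were protein coding.

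What the files call an end was not always a separate place of cleavage. No 2 ends of a gene began at the same splice acceptor, so cleavage sites that follow each other within 1 last exon, the common kind of alternative polyadenylation, are not told apart in these values. In 370 genes (29.3%) some last exons overlapped, and in 201 genes (15.9%) some ends shared their last base and differed only in where the last exon began. In 76 genes all ends had the same last base. For 445 of the 3717 ends (12.0%) the coordinates lay outside the span or off the strand of the named gene: 275 of them finished at the last base of a transcript of another gene, 56 lay in another gene on the same strand, 76 only in a gene on the opposite strand, and 38 in no annotated gene.

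The members were unevenly placed on the strands. The minus strand carried 2780 ends (74.8%) and the plus strand 937 (25.2%). Among genes at 5 FPKM or more, 46.1% of 2050 minus-strand genes and 16.4% of 1933 plus-strand genes had at least 2 listed ends, with 1.92 and 1.29 listed ends per gene, whereas GENCODE 29 holds 4.47 and 3.88 last exons per gene for them. The cause was not tested. Summed end FPKM and summed start FPKM of a gene should match if both describe the same transcripts. They differed by at most 25% of the smaller sum in 880 of 1240 genes (71.0%), and the ends summed to under 0.5 times the starts in 65 (5.24%).

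The order of the ends within a gene was largely stable. All 4 libraries listed 2803 ends (75.4%), and each single library listed 85.9% to 86.5% of the ends. The same end led in all 4 libraries in 1100 of 1261 genes with end expression in each (87.2%). Between the 2 shControl libraries 17.1% of ends differed in share by 10 percentage points or more, and between the 2 shNeuroD1 libraries 18.6%. The 4 pairs of a shControl with a shNeuroD1 library gave 19.6% to 20.4%. Another end led in 83 and 84 genes within the groups and in 81 to 104 genes between them. The pairs across groups therefore differed little more than replicates did, and each group had only 1 pair of its own.

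**Figure D2:**
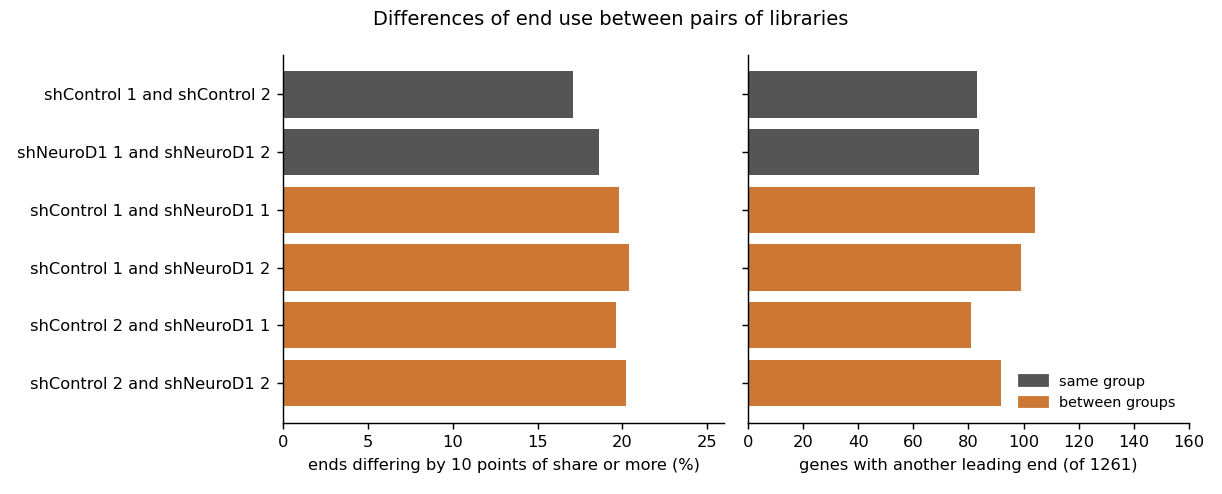
Each pair of libraries, with the percentage of member ends whose share differed by 10 percentage points or more and the number of genes in which another end led (bars, from 0). The 2 within-group pairs stood at 17.1% and 18.6% and the 4 between-group pairs at 19.6% to 20.4%.

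The knockdown was then compared with the control end by end. The log2 ratio of each end to the other ends of its gene, each with a pseudocount of 1 FPKM, was tested with limma over all 6079 ends of the 2102 genes that had several ends and averaged at least 1 FPKM, and an end was called at an adjusted p under 0.05 with a share difference of at least 10 points. 1 end was called higher and 1 lower, 0.0165% of the tested ends in each direction, and both were ends of NHP2. With an unadjusted p under 0.05 there were 385 member ends (10.4%), against 10.8% of all ends tested. By limma's diffSplice, which pools the spread over the ends of a gene, 26 member ends were higher and 27 lower in 37 genes, against 1.33% of all ends tested called in either direction. With 2 libraries a group the test of the ratio had 3.75 degrees of freedom, of which 1.75 came from sharing the spread across ends.

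NHP2 encodes a core protein of the H/ACA ribonucleoproteins, which guide pseudouridylation and are part of telomerase. Its end 2, within the gene, had 67.4 and 64.8 FPKM with the control hairpin and 7.36 and 8.15 with the knockdown hairpin. Its end 3 was not listed in either shControl library and stood at 66.8 and 69.2 FPKM in the shNeuroD1 libraries. The share of end 2 was 99.99% in each shControl library and 9.92% and 10.53% in the shNeuroD1 libraries, a log2 ratio change of −9.04 (SE 0.231, limma adjusted p = 0.0148), and end 3 changed by 9.05 (adjusted p = 0.0148). The groups did not overlap and the replicates lay within 1 point of each other. End 3 is a last exon of 52 bases at chr5:178148173-178148224, downstream of the annotated span of NHP2 and on the strand opposite RMND5B. The gene counts of NHP2 were 88.6 and 87.5 CPM in shControl and 91.3 and 89.2 in shNeuroD1 (log2 fold change 0.04, edgeR adjusted p = 0.602), and those of RMND5B 35.8 and 34.6 against 33.3 and 34.3 CPM (adjusted p = 0.549). The change in NHP2 was therefore one of the listed end, at a level of gene counts that did not pass the test. Without any 1 of the 4 libraries the adjusted p of end 2 was 0.345 to 0.481, and with ends restricted to the strand and span of the gene its share difference was −0.0627 points (adjusted p = 0.269).

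**Figure D3:**
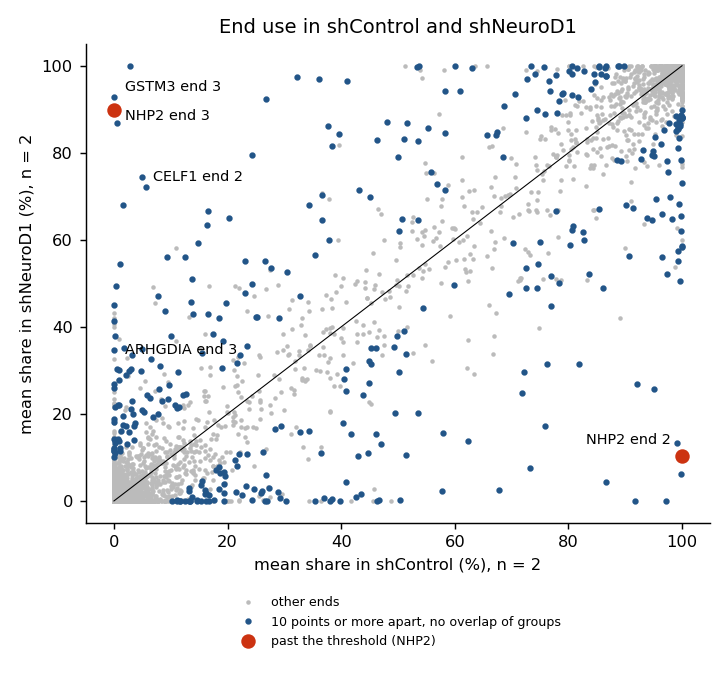
Mean share of each member end in the 2 shControl libraries (x axis, percent) and the 2 shNeuroD1 libraries (y axis, percent). The called ends of NHP2 are red, and the ends with a difference of at least 10 points and no overlap between the groups are blue.

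Among the genes described here, the next lowest adjusted p-values belonged to ARHGDIA, GSTM3 and SLC25A6, and none passed the limit. AC021188.1, whose ends are not described here, was not called in this fit either. It was called with no filter on low values, with at least 5 FPKM for the fit, with overlapping ends merged and by diffSplice. ARHGDIA, which codes for an inhibitor that keeps small GTPases inactive, was chosen here after its values were seen. Its ends lie in the same last-exon region, end 3 reaching further downstream than end 2 and carrying the AATAAA. End 2 had 157 and 119.4 FPKM in shControl and 109.2 and 102.2 in shNeuroD1, and end 3 had 0.06 and 0 against 58.1 and 53.8 FPKM. End 3 thus made up 0.04% and 0% of the gene's end FPKM in the controls against 34.7% and 34.5% under knockdown (limma adjusted p = 0.0509). The gene's counts were 371 and 368 against 406 and 383 CPM (edgeR adjusted p = 0.0587).

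GSTM3 encodes a glutathione S-transferase, an enzyme that couples glutathione to reactive compounds. Its end 2 had 8.14 and 6.32 FPKM in shControl and 2.37 and 0.23 in shNeuroD1, and end 3 was not listed in either shControl library and stood at 19.8 and 11.6 FPKM in shNeuroD1. End 3 took 89.2% and 96.2% of the gene in shNeuroD1 (adjusted p = 0.0677), and like end 3 of NHP2 it lay outside the gene, on the strand opposite GSTM5. SLC25A6, a mitochondrial carrier that exchanges ADP for ATP, had the same form. Its end 1 had 127.4 and 170.4 FPKM against 12.4 and 6.01, with shares of 100% and 98.4% in shControl and 15.2% and 11.2% in shNeuroD1 (adjusted p = 0.124). Its end 3, on the strand opposite IL3RA, had shares of 0% and 1.12% against 84.8% and 88.8% (adjusted p = 0.0677). IL3RA counts rose from 9.09 and 9.82 CPM to 22 and 19.9 (log2 fold change 1.15, edgeR adjusted p = 8.58e-10), and the part of IL3RA reads in that end was not tested. When the fit kept only genes whose ends and starts differed by at most 25%, an alternative chosen after the data had been seen, ends of ARHGDIA, GSTM3, NHP2 and SLC25A6 were called, 4 higher and 2 lower.

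Ends whose last exons overlap were named by the size of their share difference among ends inside their genes and without overlap between groups, and none of these differences passed the test. CELF1 is an RNA-binding protein of splicing and decay. Its end 1 had shares of 94.8% and 95.3% in shControl and 19.8% and 31.5% in shNeuroD1 (adjusted p = 0.297), while end 2, further downstream and with the ATTAAA, had 0.22 and 0.26 FPKM against 9.26 and 8.29. The ends summed to 1.72 times the starts, so the 2 kinds of event did not describe the same amount of CELF1 RNA. The gene's counts were 217 and 216 against 199 and 200 CPM.

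PRPF4B, a kinase of the spliceosome, had an end 1 with shares of 1.86% and 1.41% in shControl and 85.3% and 50.8% in shNeuroD1 (adjusted p = 0.363). The last base of its end 2, which led in shControl, lies 1 base from that of end 1. The ends of PRPF4B summed to 2.03 times its starts. ELOB, a subunit of elongin and of VHL-type ubiquitin ligases, had 2 ends with the same last base that differ in where the exon begins. Its end 1 had shares of 72.8% and 73.8% in shControl and 0% and 15.2% in shNeuroD1 (adjusted p = 0.369). In ATP5F1E, a small subunit of the mitochondrial ATP synthase whose 2 ends also share their last base, end 1 had 90.5% and 45.2% against 0% and 5.08% (adjusted p = 0.373). The shControl replicates of ELOB lay within 1 point of each other, and those of ATP5F1E did not.

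JMJD1C, a protein of the histone demethylase family, had an end 1 that was not listed in shControl and held 34.6% and 55.3% in shNeuroD1 (adjusted p = 0.328). IFI44, an interferon-induced gene, had an end 3 at 0% and 48.5% against 99.7% and 59.5% (adjusted p = 0.528), and its ends summed to 0.42 times its starts. For NT5DC2, a protein of the 5′-nucleotidase family, 1 library decided the difference. Its end 2 held 92.0% in shControl replicate 1, 0.70% in shControl replicate 2, and 0.04% and 0.12% in shNeuroD1 (adjusted p = 0.635), and without shControl replicate 1 the difference was −0.621 points.

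**Figure D4:**
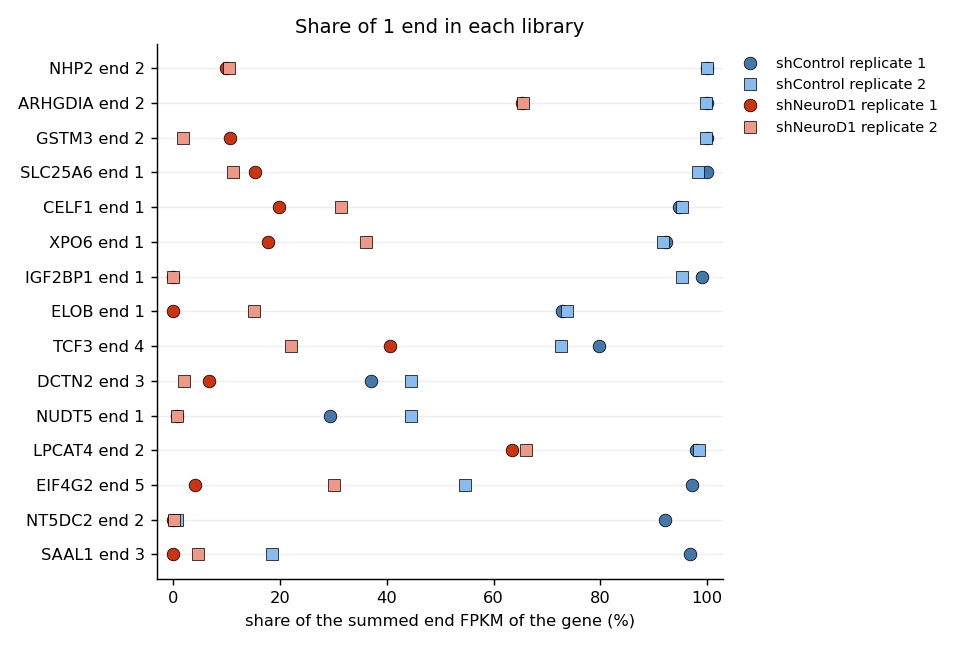
Share of 1 end of its gene (x axis, percent of the summed end FPKM) in each of the 4 libraries for 15 genes (rows), circles for replicate 1 and squares for replicate 2, blue for shControl and red for shNeuroD1. NHP2, GSTM3 and ARHGDIA show replicates close together and groups apart, whereas NT5DC2, EIF4G2 and SAAL1 show 1 shControl library away from the other.

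The separate last exons named by the same rule were led, beside NHP2 and SLC25A6, by IGF2BP1, an oncofetal RNA-binding protein that stabilises MYC and other messages. Its end 1 had 15.3 and 3.05 FPKM in shControl and was not listed in either shNeuroD1 library, and end 2 had 0.16 and 0.15 against 3.32 and 3.46 FPKM. The share of end 1 was 99.0% and 95.4% against 0% and 0% (adjusted p = 0.318), but the ends summed to only 0.15 times the starts. IGF2BP1 counts fell from 553 and 623 CPM to 409 and 396 (log2 fold change −0.55).

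TRAP1, a mitochondrial chaperone, had an end 3 with shares of 90.3% and 93.2% in shControl and 0% in both shNeuroD1 libraries (adjusted p = 0.318), with ends at 0.14 times the starts. Its ends summed to 12.3 and 6.9 FPKM in shControl against 0.283 and 1.5 in shNeuroD1. TRAP1 thus passed the level limit through shControl, and its shNeuroD1 shares rest on low values. Its gene counts were 120 and 114 against 152 and 152 CPM. NOP58, a core protein of box C/D ribonucleoproteins, had an end 2 at 82.5% and 90.8% against 2.14% and 6.61% (adjusted p = 0.401), from 1.77 and 20.0 FPKM in the shControl libraries. XPO6, the nuclear exporter of actin, had an end 1 at 92.2% and 91.8% against 17.7% and 36.1%, and its end 3, at the far 3′ side, had 0.31 and 0.19 FPKM against 17.7 and 4.98 (adjusted p = 0.328). Over the libraries the ends of these genes summed to less than 0.5 times their starts, but the ratio varied: it was 1.05 for NOP58 in shControl replicate 2 and at most 0.0388 in the other libraries, and from 0.153 to 0.858 for XPO6.

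SAAL1, a gene named for its resemblance to a serum amyloid protein, had an end 2 at 0% and 72.2% in shControl and 99.9% and 94.0% in shNeuroD1 (adjusted p = 0.408). EIF4G2, a translation initiation factor, had an end 5 at 97.2% and 54.7% against 4.16% and 30.2% (adjusted p = 0.524). In ACIN1, a nuclear protein of apoptosis and splicing, end 2 had shares of 55.7% and 26.4% against 96.2% and 96.9% (adjusted p = 0.318). EIF4G2 passed the level limit through shControl replicate 1, with ends summing to 33.1 and 1.46 FPKM in shControl and 3.33 and 3.24 in shNeuroD1. ACIN1 passed it through shNeuroD1, with 2.75 and 0.452 against 23.4 and 6.38 FPKM. The ends of EIF4G2 summed to 0.059 times its starts, those of ACIN1 to 0.189 times and those of SAAL1 to 0.61 times. In each of these 3 genes the shControl replicates lay further apart than the shNeuroD1 replicates.

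Further ends without overlap between the groups were picked after their values were seen. DCTN2, the dynamitin subunit of dynactin, had an end 3 with shares of 37.1% and 44.6% in shControl and 6.78% and 1.95% in shNeuroD1 (adjusted p = 0.318), and its end 5, the protein-coding one with the ATTAAA, had 62.0% and 54.4% against 91.6% and 97.0%. DCTN2 counts were lower in shNeuroD1, 168 and 167 against 127 and 120 CPM. NUDT5, a hydrolase of ADP-ribose, had an end 1 at 29.3% and 44.5% against 0.629% and 0.624% (adjusted p = 0.315), the rest being the far end. LPCAT4, an enzyme of phospholipid remodelling, had an end 1, a retained intron, at 2.01% and 1.48% against 36.6% and 33.9% (adjusted p = 0.328). The ends of LPCAT4 summed to 1.62 times its starts.

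TCF3, which encodes the E proteins that partner NEUROD1 on DNA, had a pair of overlapping ends with the same last base. End 4 had shares of 79.8% and 72.6% in shControl and 40.6% and 22.1% in shNeuroD1 (adjusted p = 0.343), and end 3 had 16.2% and 24.3% against 58.3% and 71.9%. TCF3 counts fell from 244 and 236 CPM to 133 and 125 (log2 fold change −0.90). PRPH, the neuronal intermediate filament peripherin, had an end 2 at 8.40% and 21.0% against 0.121% and 0.118% (adjusted p = 0.318). NSD3, a histone methyltransferase, had an end 2 at 3.996% and 2.534% against 31.8% and 35.4% (adjusted p = 0.314), and this end finished at the last base of the neighbouring gene PLPP5, whose counts rose from 16.6 and 16.8 to 26.1 and 26.1 CPM (log2 fold change 0.64). In these 3 genes the groups did not overlap, and no end passed the test.

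Counted over the members, 614 ends (16.5%) had a higher share and 607 (16.3%) a lower share in both shNeuroD1 libraries than in either shControl library, against 15.7% and 15.9% of all ends tested. The groups lay apart by 10 points or more for 361 ends (9.71%) in 206 genes, against 12.5% of all ends tested. The median absolute difference was 1.53 points. Of the 943 most 3′ ends that shared their last base with no other, 167 were higher without overlap and 168 lower, with a median difference of −0.00276 points. By transcript type the ends apart were 260 higher (16.4%) and 290 lower (18.3%) of 1587 protein-coding ends, and 170 (19.5%) and 146 (16.8%) of 870 retained introns. They were 41 (19.6%) and 32 (15.3%) of 209 decay ends, and 64 (17.1%) and 53 (14.1%) of 375 processed transcripts. These percentages lay near those of all ends tested, and no difference between types was tested. The hexamer stood in 49.1% of the 159 ends that were apart and at least 10 points higher and in 53.2% of the 154 that were lower. The same test on transcript starts called 0 of 29595, with 10.5% at an unadjusted p under 0.05.

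In 16 of 1261 genes (1.27%) 1 end led in both shControl libraries and another in both shNeuroD1 libraries. The leading end was the further 3′ in shNeuroD1 in 11 of them and the nearer in 2, PRPF4B and UGGT2, of which the ends of PRPF4B differ by 1 base. In the other 3, ELOB, TCF3 and TMEM145, both ends had the same last base. They were CELF1, CEP95, CUL5, ELOB, GSTM3, IGF2BP1, NCL, NHP2, PRKAA1, PRPF4B, SLC25A6, TCF3, TMEM145, TRIM4, UGGT2 and XPO6. For 3 of the 16, PRKAA1, TRIM4 and ELOB, both ends lay in the gene and the ends and starts differed by at most 25%. Of the 11 further 3′, CUL5, GSTM3, NHP2 and SLC25A6 had an end outside the gene. In NCL, also among the 11, the end that led in shControl had only 0.113 and 0.104 FPKM there. The end that led in its shNeuroD1 libraries had 24.2 and 0.298 FPKM, so replicate 1 carried NCL past the level limit. The 16 genes are named from a count and only NHP2 among them passed the test.

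At the other extreme, the most abundant members kept 1 leading end in all libraries. EEF1A1, the elongation factor that brings aminoacyl-tRNA to the ribosome, had 3119 and 2918 FPKM at its end 3 in shControl and 2782 and 3222 in shNeuroD1, 99.99% of the gene in each library. LDHB, a lactate dehydrogenase subunit, had 634.7 and 797 against 743.5 and 706.1 FPKM at its end 2, again 99.99%. HNRNPA2B1, an RNA-binding protein, had its end 4 at 87.95% and 90.93% against 89.5% and 89.0%, although its ends summed to 87.3 times its starts. SNORD43, a small nucleolar RNA, was listed at 816.8 and 131 against 764.3 and 712.3 FPKM at the last base of RPL3, a ribosomal protein gene that hosts it.

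Gene lists that bear on transcript ends or on the cells gave few members and no called end. The shares of their ends without overlap between groups stand against 31.6% of all ends tested (15.7% higher and 15.9% lower), and ends of 1 gene are not independent. Some of these ends lay outside the span or off the strand of the named gene. The cleavage and polyadenylation factors held 4 member genes with 13 ends (CPSF6, CSTF3, PABPC1 and SSU72), of which 3 ends lay apart higher and 2 lower (38.5%), with a lowest adjusted p of 0.318. In CPSF6, a subunit of cleavage factor I, end 1 had 3.45% and 3.54% in shControl and 13.9% and 14.2% in shNeuroD1, and end 4 had 4.11 and 8.83 FPKM in shControl and was not listed in either shNeuroD1 library. End 5, with the same last base, remained listed, and ends 4 and 5 together held 35.4% and 40.6% against 24.8% and 38.8%, with the groups overlapping. CSTF3, which makes a short form from an intronic end, kept its end 2 at 99.94% and 99.96% against 99.54% and 99.97%. The regulators of end choice held 5 genes (CDK12, CPEB1, ELAVL2, HNRNPH1 and SCAF4) with 13 ends, 4 apart higher and 4 lower (61.5%). Of these only 2 ends, both of CDK12, were apart by 10 points or more. The cleavage and polyadenylation factors had 3 such ends, against 12.5% of all ends tested. CDK12, the kinase that protects long genes from early ends, had its end 1 at 35.5% and 29.9% against 10.5% and 21.1%. This end has the same last base as end 2, so the 2 ends differ only in where the last exon begins.

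Genes known from textbooks for alternative ends held 7 members (CSTF3, DICER1, HNRNPA2B1, HNRNPH1, IGF2BP1, MAP4 and NAP1L1) with 19 ends, 5 apart higher and 4 lower (47.4%, against 31.6% of all ends tested). RNA-binding proteins held 9 with 28 ends, 5 apart higher and 8 lower (46.4%). Among them HNRNPK had an end 2 at 24.1% and 26.4% against 45.6% and 39.0%, and HNRNPDL an end 1 at 87.0% and 83.8% against 74.0% and 60.2%. All ends of HNRNPDL have the same last base and differ only in where the last exon begins. Cell cycle genes held 4 (AURKB, BUB3, MCM3 and RRM2) with 10 ends, 2 apart in each direction (4 of 10). Ends 2 and 3 of RRM2 finished at the last base of a transcript of C2orf48. Neuronal genes held 3 (KIF1A, STX1A and TUBB2B) with 9 ends, 1 in each direction (22.2%). No end listed for TUBB2B lay on its strand and within its span, and its leading end finished at the last base of TUBB2BP1. Chromatin and lineage regulators held 4 (CHD4, HAND2, KDM5B and TCF3) with 19 ends, 1 higher and 3 lower (21.1%). The 3 HAND2 ends, in no annotated gene, were listed in 1 library alone and so could not count as apart. Ends apart by at least 10 points numbered 2 of 19 for textbook genes, 8 of 28 for RNA-binding proteins and 0 of 10 for cell cycle genes. They were 2 of 9 for neuronal genes and 3 of 19 for chromatin and lineage regulators, against 12.5% of all ends tested. MYCN, the amplified oncogene of this line, had 1 listed end, at 507 and 475 FPKM in shControl and 540 and 534 in shNeuroD1, and its counts had a log2 fold change of −0.01 (edgeR adjusted p = 0.886). USP1, a deubiquitinase of the Fanconi pathway, also had 1 end, at 53.3 and 56.3 against 25.8 and 23.9 FPKM, and its counts fell by 1.27 on the log2 scale (adjusted p = 1.77e-21).

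The machinery that makes the ends was measured with the gene counts. Over all 17537 genes tested with edgeR, 4939 (28.2%) were lower and 4698 (26.8%) higher in shNeuroD1, and 51.3% of the called genes were lower. With library size alone as the scaling the median of all genes shifted from 0.0084 to 0.12 and 37.3% of the called genes were lower. Of 22 cleavage and polyadenylation factors 11 were lower, 4 higher and 7 did not pass, with a median log2 fold change of −0.15 (−0.036 with library size alone, where 7 were lower). CPSF7, the larger kind of subunit of cleavage factor I, fell from 2201 and 2475 counts to 1565 and 1546 (log2 fold change −0.58, SE 0.0492, adjusted p = 9.27e-12), and NUDT21, its RNA-reading subunit, from 336 and 350 CPM to 273 and 275 (−0.32, adjusted p = 7.78e-08). CPSF2, a scaffold of the cleavage complex, fell from 116 and 114 to 76.9 and 77.9 CPM (−0.57), and CSTF2T, an RNA-binding subunit of CstF, from 124 and 123 to 85.7 and 82.9 (−0.55). PAPOLA, the poly(A) polymerase, fell by 0.31 and CPSF3, the endonuclease, by 0.27. The 4 that rose were CPSF4 (0.24), CPSF1 (0.22), RBBP6 (0.20) and PABPC1 (0.10). Without shControl replicate 2, 7 factors were lower and 2 higher, and without shNeuroD1 replicate 1, 2 were higher.

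Among 27 regulators of end choice 14 were lower, 6 higher and 7 did not pass, with a median of −0.22 (−0.105 with library size alone). The splicing factors SRSF3 and SRSF7, which couple splicing, end choice and export, fell from 721 and 686 CPM to 429 and 428 (log2 fold change −0.72, SE 0.0405, adjusted p = 4.21e-16) and from 365 and 339 to 209 and 206 (−0.76, SE 0.0447, adjusted p = 1.01e-15). HNRNPH1, PTBP1, ELAVL1 and KHDRBS1, RNA-binding proteins that act near cleavage sites, fell by 0.58, 0.59, 0.64 and 0.50. Among proteins of neurons, ELAVL3 (−0.34) and ELAVL2 (−0.18) were also lower, and NOVA1 (−0.42) did not pass. The 6 that rose included other proteins of neurons, NOVA2 (0.59), ELAVL4 (0.25) and PTBP2 (0.16), as well as CPEB1 (0.37), RBFOX2 (0.31) and CDK13 (0.17). Only 3 of these 6 were called without shControl replicate 1, without shNeuroD1 replicate 2, with no filter on low counts or with DESeq2. No factor of either list changed by more than 1 on the log2 scale. Of the 1220 member genes in the count fit, 822 (67.4%) passed, 556 lower and 266 higher, against 55.0% of all genes, with a median of −0.11. The members were chosen at 5 FPKM or more and the other genes were not, so the 2 percentages come from sets of unlike expression.

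**Figure D5:**
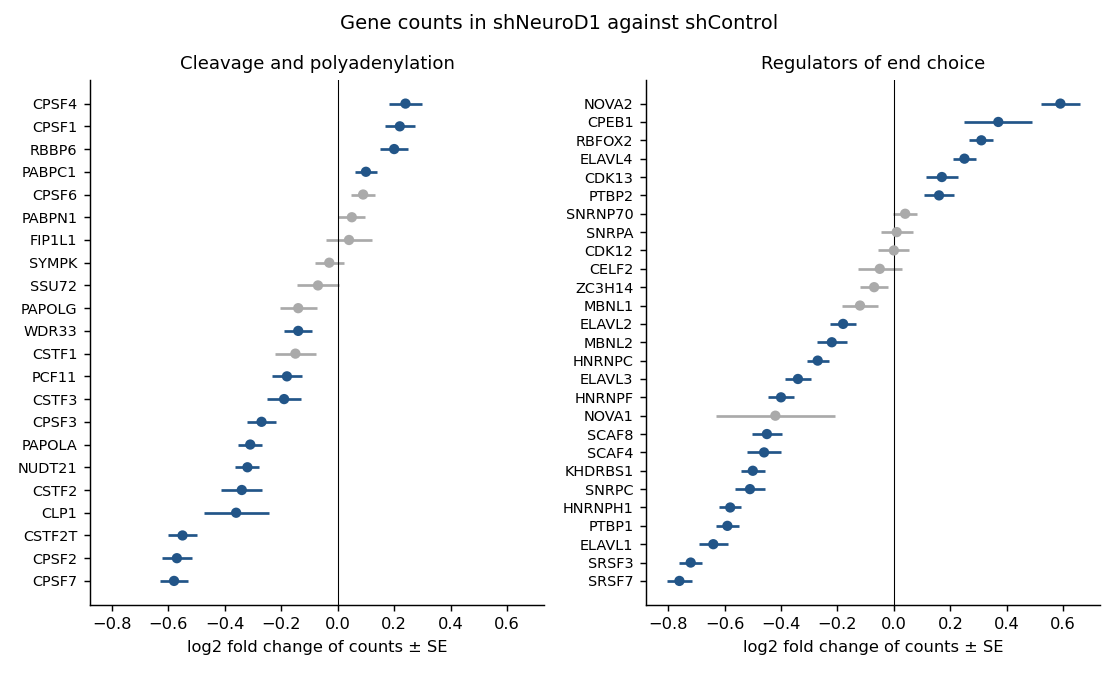
Log2 fold change of gene counts, shNeuroD1 against shControl (points, bars show SE), for the cleavage and polyadenylation factors and the regulators of end choice. Blue points passed an adjusted p of 0.05 and grey ones did not, and the lowest point of all was SRSF7 at −0.76.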

How the data were processed

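Poly(A) RNA of 4 libraries was measured. Per the labels, the authors trimmed reads with cutadapt 1.9.1, aligned them to hg38 with HISAT2 2.0.1 and counted genes with HTSeq 0.6.1, and the submitters' notes also name DESeq2. The deposited gene table holds raw counts, and the deposited event tables hold FPKM per transcript start, end or splicing event, listing only values above 0. The tool that made the events, their read depth and the use of strand in counting are not given in the sources used here, so no counting interval is given for FPKM. Columns with the authors' own fold changes and p-values were not used, and 0 sample columns were left unmapped.

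Here duplicated rows were dropped and ends were matched to GENCODE 29. Shares were tested with limma 3.58.1 (R 4.3.3) on log2((FPKM + 1)/(FPKM of the other ends + 1)), which understates changes of low ends, with Benjamini-Hochberg adjustment over all ends tested. This ratio also follows the level of the gene where the other ends lie near 0 FPKM. Counts were tested with edgeR 4.0.16 (quasi-likelihood, TMM, filterByExpr), with DESeq2 1.42.0 as an alternative. The named ends were the 8 overlapping and 8 separate ends with the largest share difference inside their gene and without overlap between groups (1 per gene), the 5 genes highest in FPKM, the 5 genes with the largest share difference among those with every end listed in all 4 libraries, NEUROD1, MYCN and USP1, and the 6 lowest p-values of each machinery list, others being said to be chosen later. The ends of 1 gene highest in FPKM are not reported here. The members and lists were chosen with earlier results of these data known. The study's methods describe no test of transcript ends. Both fits were tested on simulated data. Libraries that share a replicate number were not paired (their deviations from the group mean share correlated at −0.123 over 3710 ends). Alternatives covered pseudocount, filters, merging of overlapping ends, scale, tool, replicate block and each library left out.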

Additional observations from a re-analysis of the deposited data

Results flagged for a closer look

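The event tables also list 318 transcript ends that carry no Ensembl gene and enter no comparison above. Of these, 20 were listed in both shNeuroD1 libraries and in no shControl library, and 8 the other way round. The libraries listed 81 and 107 of them in shControl and 147 and 128 in shNeuroD1, with summed levels of 135 and 171 FPKM against 196 and 160. At 1 FPKM or more, 1 end was found in both shNeuroD1 libraries alone and 1 in both shControl libraries alone. The groups were not tested against each other for these ends.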

How the results depend on the processing

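The calls of transcript ends rested on few ends and few degrees of freedom. Where the fit above gave 1 end higher, 1 lower, 1 gene moving toward the distal end and 0 toward the proximal end, 0 higher, 0 lower and 0 distal were found with a pseudocount of 0.1 FPKM, with only ends listed in all 4 libraries, with ends on the strand and within the span of the gene, and with each library left out in turn (0 to 0 for all 4 counts). With no filter on low values, and with at least 5 FPKM for the fit, 3 ends were higher, 2 lower and 1 gene proximal. With overlapping ends merged there were 2 higher, 2 lower and 1 proximal. The arcsine square root of the share gave 2 lower, the second being TRAP1. Genes whose ends and starts differed by at most 25% gave 4 higher, 2 lower and 2 distal. limma's diffSplice, which pools the spread over the ends of a gene, gave 26 member ends higher and 27 lower in 37 genes. Over all 6079 ends tested, members or not, it called 81 (1.33%). It gave 9 genes distal and 6 proximal, and CELF1, GSTM3, SLC25A6 and XPO6 were among the 37 genes. The cause of these differences was not tested, beyond the smaller set of ends where ends were left out.

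With a replicate block 0 ends were higher, 0 lower and 0 genes distal, and with the crossed replicate block 0, 0 and 0. The labels share only replicate numbers and the check of pairing was negative, so the block is given as a description.

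In the counts, the cleavage factors called lower numbered 7 with library size alone and 7 to 9 without 1 library, those called higher 6 with library size alone and 2 to 3 without 1 library. The regulators called higher numbered 3 with no filter, 3 with DESeq2 and 3 to 4 without 1 library, those called lower 13 to 14 without 1 library, and the NEUROD1 log2 fold change ran from −2.84 to −2.71. No direction reversed in the 206 recomputed differences of named ends, of which 190 kept their side of the threshold. The stable direction is no support, because these ends were picked without overlap between groups. Leaving out 1 library could therefore not reverse them, and the pseudocount, scale, tool and block leave the share difference unchanged. Event FPKM carries no read count, so low ends limit what could be detected.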
